A study of Saccharomyces cerevisiae with 96 samples.

Results

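The proteasome subunit genes of budding yeast are the 32 genes that encode the core particle (the PRE, PUP and SCL1 genes) and the regulatory cap (the RPN and RPT genes), picked by systematic name out of 6598 mRNAs. They fell into 7 alpha ring genes, 7 beta ring genes, 12 RPN genes and 6 RPT genes, and every one had a row in each count table. The counted feature was the 5′ region of each mRNA, reaching 120 bases before and 65 bases after the start codon, so that every gene was counted over a window of the same length. There were 2 readouts, which covered the same strains: the transcriptome, which counts all RNA, and NAD captureSeq, in which the enzyme ADPRC (adenosine diphosphate-ribosylcyclase) marks RNAs that carry NAD at their 5′ end so that they can be pulled down.

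The strains were haploid BY4742 derivatives of mating type alpha that carry his3Δ1, leu2Δ0, lys2Δ0 and ura3Δ0 throughout. The deletions were npy1::kanMX4, dxo1::natNT2 and rai1::hphNT1, which gave npy1Δ, dxo1Δ, rai1Δ, dxo1Δ npy1Δ, dxo1Δ rai1Δ, rai1Δ npy1Δ and dxo1Δ rai1Δ npy1Δ beside WT. All were harvested in log phase from YPD at 30 °C. Each strain had 3 transcriptome libraries, 3 captures with ADPRC (+ADPRC) and 3 mock captures without it (−ADPRC), and npy1Δ and WT had further captures of small and of large fragments. Npy1 is a Nudix pyrophosphatase that splits the NAD cap, and Dxo1 and Rai1 are relatives that remove whole or incomplete caps. The labels call the libraries biological triplicates but do not tie them to separate days or clones, so that p-values measure the spread between these libraries.

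The proteasome degrades proteins that have been tagged with ubiquitin. Its core particle is a stack of alpha rings, which gate the channel, around beta rings, which hold the protease sites. The regulatory cap recognises ubiquitin, removes it and, with the ring of RPT ATPases, unfolds the substrate and feeds it into the core. In yeast the transcription factor Rpn4 binds a shared promoter element, the proteasome-associated control element, in front of most of these genes, and Rpn4 is itself a short-lived proteasome substrate.

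That element was present in front of most members. The exact 9-letter form GGTGGCAAA was searched on both strands in the 500 bases before the start codon. It occurred once in 27 of the 32 genes (84.4%). Over all genes, members included, it occurred in 99 of 6006 windows (1.65%), and in 5 of 25 other genes of the pathway. In the members it lay 84 to 183 bases before the start codon, with a median of 120. It read along the gene in 19 members and on the other strand in 8. PRE5, PUP1, RPN8, RPN10 and RPN13 held no exact match in this window. The windows shown are those of the members whose values are described most closely, written along the gene with the element in capitals and 10 bases on either side, from the RefSeq genome R64 of strain S288C.
PRE6 (YOL038W), element 109 bases before the start codon: cgaagattctTTTGCCACCggaagggaaa
PRE7 (YBL041W), element 87 bases before the start codon: aaactcaaagGGTGGCAAAaacaagcggt
PRE8 (YML092C), element 120 bases before the start codon: agcttattaaGGTGGCAAAattgtccccg
RPN5 (YDL147W), element 138 bases before the start codon: ttgacttttcGGTGGCAAAatgcaaaggg
RPN7 (YPR108W), element 154 bases before the start codon: ataagttaagTTTGCCACCcattgaggat
RPN11 (YFR004W), element 124 bases before the start codon: ggacctccaaGGTGGCAAAttcacaagaa
RPN12 (YFR052W), element 97 bases before the start codon: ctacacattaTTTGCCACCcattgaaatt
RPT1 (YKL145W), element 155 bases before the start codon: attaccgaatTTTGCCACCcgaaaactaa
RPT3 (YDR394W), element 176 bases before the start codon: ctgaaagtaaGGTGGCAAAatagtaaatc
RPT4 (YOR259C), element 112 bases before the start codon: aatagtggaaTTTGCCACCgaagggaaag
These members include ones that were higher and ones that were lower in the comparisons that follow.

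The transcriptome libraries held 4926021 to 17733417 reads, of which 21.3 to 29.1% fell on mRNAs in the deletion strains and 9.97 to 11.0% in WT, and 5438 to 12818 on the 32 members. WT stood apart from every deletion strain. All 10 listed glucose-repressed genes were lower in each of the 7 deletion strains than in WT, beside 34.5 to 36.8% of all RNAs. They include PCK1 of gluconeogenesis and the lactate transporter gene JEN1, and their median log2 was -8.08 in npy1Δ. The list was chosen because earlier results of these data showed such genes to differ between WT and the deletion strains. Its count is thus no separate evidence. The part of these genes in the values against WT was not tested. WT and npy1Δ were sequenced in 1 run and the other 6 strains in another, so that for those 6 strains the run and the strain cannot be told apart in any comparison with WT. Scaling by total counts instead of TMM factors (trimmed mean of M values, edgeR) moved the values of all RNAs against WT up by a median log2 of 1.46 to 1.74, so that differences from WT below hold relative to the other RNAs of the library and not per total read. The part of the lower mRNA share of WT in this shift was not tested. NPY1 reads were 0 to 13 per library in the npy1Δ strains, against 32 to 51 in WT, and RAI1 was close to absent in the rai1Δ strains, while DXO1 had too few 5′ reads in WT (0, 0 and 5). Over its coding sequence DXO1 had 4 to 18 reads per library in the dxo1Δ strains, 653 to 897 in the other deletion strains and 89, 132 and 144 in WT.

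The members took similar parts of the 5′ region reads in all strains, strain means of 0.463 to 0.541% of the reads on mRNAs in the deletion strains and 0.476% ± 0.032 in WT (SD, n = 3). Averaged over the 8 strains, single members spanned 33.9 RPM (PRE3, the caspase-like protease subunit) to 284.0 RPM (PRE4, a beta subunit without a protease site), where RPM scales a count to all mRNA 5′ region reads of its library. The medians of the 4 groups were 150.2 for the alpha ring, 229.5 for the beta ring, 140.4 for the RPN genes and 115.2 for the RPT genes RPM. Members of 1 ring thus differed in 5′ reads, although their products occur in equal numbers in the particle. This order holds for the 5′ window only. Over coding sequences PRE3 had 180 RPM and PRE4 198 RPM in WT, scaled to all coding reads on mRNAs. Counted over coding sequences, the members' share of the mRNA reads was 0.471 to 0.559% in the deletion strains and 0.677% ± 0.014 in WT (SD, n = 3), a gap that the 5′ regions did not show.

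The comparison of npy1Δ with WT is the only one with WT inside a single run. In it the loss of NPY1 cannot be told apart from the difference that WT showed from every deletion strain. Of the 32 members 5 were higher, compared with 35.6% of the 6927 RNAs tested, and 7 were lower, compared with 34.5% (edgeR quasi-likelihood test, Benjamini-Hochberg adjusted p below 0.05, TMM factors). By total counts 30 members were higher and none lower. With TMM factors the members' median log2 fold change was -0.13, beside 0.03 over all RNAs. A smaller share of the members than of all RNAs was called in either direction. The libraries of the 2 strains did not overlap for 73.6% of all RNAs tested and for 16 of the 32 members.

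PRE6, an alpha ring gene, had 207, 181 and 178 TMM-normalised reads in npy1Δ, against 90.2, 119 and 103 in WT. RPN7, a subunit of the lid that forms part of the cap, had 202, 228 and 209 in npy1Δ, against 149, 123 and 130 in WT. Every npy1Δ library lay above every WT library for both genes, with log2 fold changes of 0.86 ± 0.16 (SE, adjusted p = 8.6e-05) for PRE6 and 0.67 ± 0.15 (adjusted p = 0.000522) for RPN7. PRE8, another alpha ring gene, had 91.2, 85.6 and 104 reads in npy1Δ, against 45.8, 70.4 and 80.0 in WT (log2 0.49 ± 0.19, adjusted p = 0.0315). Its call was lost without npy1Δ replicate 3 (adjusted p = 0.052), WT replicate 1 (0.15) or WT replicate 2 (0.055).

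The largest differences in the other direction were found for PRE7, RPN8 and RPN5. PRE7, a beta ring subunit without a protease site, had 209, 224 and 230 reads in npy1Δ, against 497, 500 and 565 in WT. RPN8, the partner of the deubiquitinase Rpn11 in the lid, had 389, 480 and 529 in npy1Δ, against 916, 986 and 1089 in WT. RPN5, another lid subunit, had 249, 268 and 239 in npy1Δ, against 365, 402 and 457 in WT. The groups did not overlap for any of the 3 genes, as for 73.6% of all RNAs tested. With TMM factors the log2 fold change of PRE7 was -1.24 ± 0.13 (adjusted p = 1.4e-07), and by total counts it turned to 0.24. RPN8 gave -1.10 ± 0.15 (adjusted p = 2.35e-06) with TMM factors and 0.39 by total counts, and RPN5 gave -0.70 ± 0.14 (adjusted p = 0.000192) and 0.77. These genes were thus low relative to the other RNAs of npy1Δ only.

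**Figure D1:**
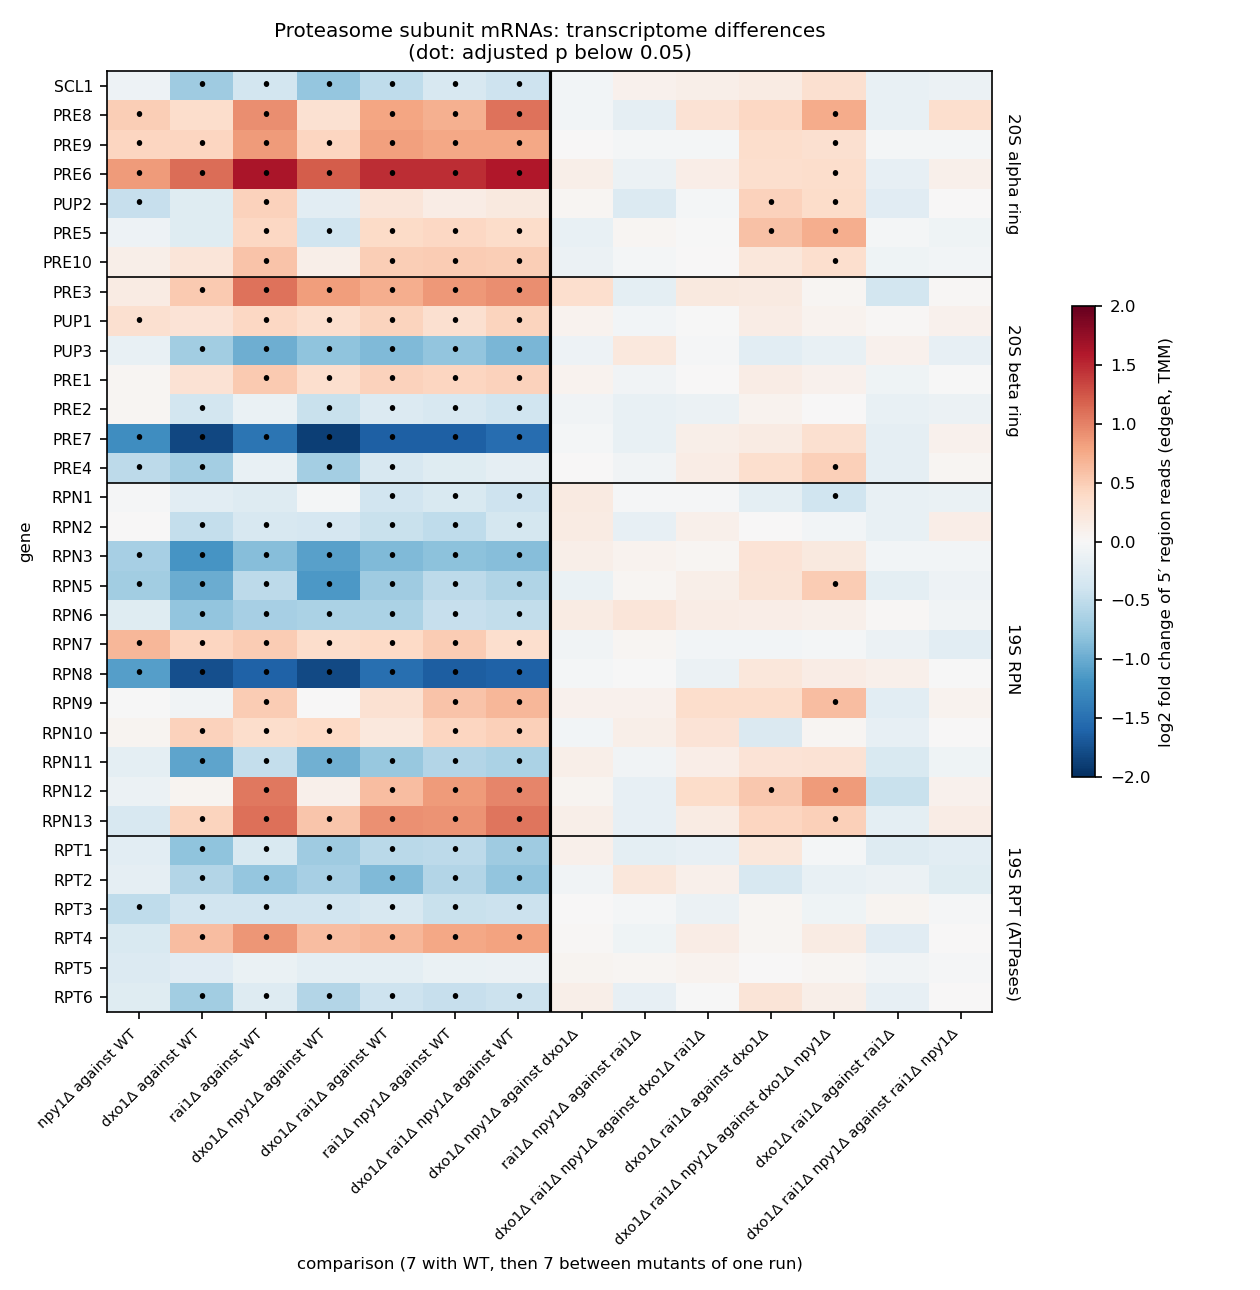
Log2 fold changes of the 32 members (rows, by subunit group) in the 14 transcriptome comparisons (columns), by edgeR with TMM factors on 5′ region counts, where marked cells passed an adjusted p of 0.05. The columns against WT hold members of both signs, of which the lower ones are lower by TMM factors but not by total counts, and the columns between deletion strains are pale except where RAI1 was lost in dxo1Δ npy1Δ or dxo1Δ.

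The 6 other deletion strains gave more calls against WT, which share the run difference and the same WT libraries. In dxo1Δ 7 members were higher (38% of all RNAs tested) and 15 lower (36%). In rai1Δ 15 were higher (40.4%) and 13 lower (36.2%), and in dxo1Δ npy1Δ 9 were higher (38.2%) and 16 lower (36.7%). dxo1Δ rai1Δ had 12 higher (39.8%) and 16 lower (35.5%), rai1Δ npy1Δ had 14 higher (39.3%) and 15 lower (36.4%), and dxo1Δ rai1Δ npy1Δ had 14 higher (40.6%) and 15 lower (36.8%). By total counts 30 or 31 members were higher and none lower in each of these 6 strains. The median log2 over all RNAs was 1.70 to 1.91 on that scaling, which removed the lower calls. Without WT replicate 2, 4 members in place of 7 were higher in dxo1Δ.

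These comparisons share the 3 WT libraries, and many members had the same call in each. How many of all RNAs had the same call in each was not counted. PRE9 and PRE6 of the alpha ring and RPN7 of the lid were higher than WT in all 7 deletion strains, with log2 fold changes of 0.42 to 0.84, 0.86 to 1.63 and 0.34 to 0.67. PRE9 is the one gene of the core that yeast can lose. Another 5 members were lower in all 7 with TMM factors, though not by total counts: PRE7 (-1.88 to -1.24), RPN8 (-1.81 to -1.10), RPN3 (-1.19 to -0.66) and RPN5 (-1.14 to -0.52), the last 3 being lid genes, and RPT3 (-0.50 to -0.32), an ATPase of the cap. Only RPT5, also an ATPase, was called in none of the 7, and PUP2 and PRE5, both of the alpha ring, were called in both directions. The 6 RPT genes had no more than 1 member higher in any strain, RPT4, and the alpha ring had 5 or 6 of its 7 members higher in the strains that lack RAI1.

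**Figure D2:**
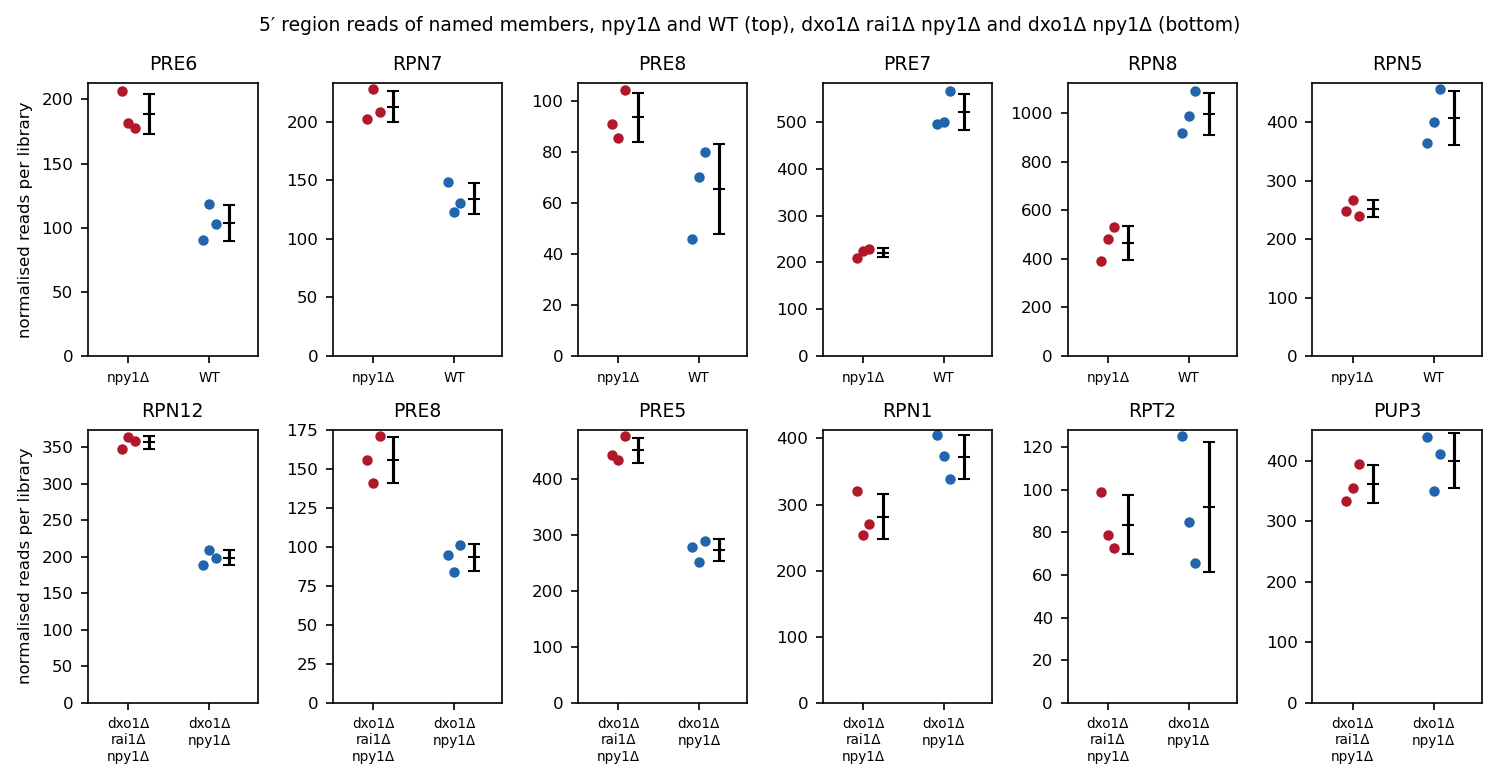
TMM-normalised 5′ region reads of single transcriptome libraries (points) for the members with the highest and the lowest fold changes in npy1Δ against WT and in dxo1Δ rai1Δ npy1Δ against dxo1Δ npy1Δ. PRE6 and RPN7 lie above WT and PRE7, RPN8 and RPN5 below it in every npy1Δ library on this scale, the lower ones not by total counts, and RPN12, PRE8 and PRE5 lie higher in every library of the triple deletion.

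RPN4, the gene of the regulator, had 266, 288 and 210 TMM-normalised reads in npy1Δ, against 635, 637 and 568 in WT (log2 -1.27 ± 0.15, adjusted p = 3.17e-07) by TMM factors, a size below the shift of 1.46 that total counts bring in this comparison. Of the 25 other pathway genes, which include the assembly chaperones, the ubiquitin shuttles and the activators, 4 were higher and 8 lower in npy1Δ than in WT by TMM factors, beside the 35.6% and 34.5% of all RNAs. The ubiquitin gene UBI4 had 454, 480 and 311 reads in npy1Δ, against 3122, 2755 and 2957 in WT, and SPG5, whose product is known for regulating the proteasome in stationary phase, had 42.8, 27.4 and 25.8 in npy1Δ, against 202, 251 and 285 in WT. Both were lower by more than the scaling shift, at log2 -2.82 ± 0.18 and -2.93 ± 0.20.

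A further 7 pairs of deletion strains were sequenced in 1 run and differ by a single deletion. Loss of NPY1 called no member in dxo1Δ npy1Δ against dxo1Δ (0.0145% of all RNAs higher and 0.0145% lower), in rai1Δ npy1Δ against rai1Δ (0.0287% each) or in dxo1Δ rai1Δ npy1Δ against dxo1Δ rai1Δ (0.546% higher and 0.402% lower) by edgeR's quasi-likelihood test. At an unadjusted p below 0.05 there were 0, 1 and 3 members in these pairs, and DESeq2 also called none. Loss of DXO1 in strains that lack RAI1 called none in dxo1Δ rai1Δ against rai1Δ (0.302% higher and 0.417% lower) or in dxo1Δ rai1Δ npy1Δ against rai1Δ npy1Δ (0.0865% and 0.0288%). There 2 and 1 members were below an unadjusted p of 0.05, and DESeq2 called 1 member lower in the first of these pairs and none in the second.

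Loss of RAI1 in strains that lack DXO1 was the exception. In dxo1Δ rai1Δ npy1Δ against dxo1Δ npy1Δ 11 members were higher, compared with 14.2% of the 6955 RNAs tested, and 1 was lower, compared with 14.4% (edgeR, adjusted p below 0.05). The median log2 fold change was 0.15 for the members and 0.03 for all RNAs. The higher members were 6 of the 7 alpha ring genes, 1 of 7 beta ring genes (PRE4) and 4 of 12 RPN genes, and none of the 6 RPT genes. Without replicate 2 of the triple deletion 7 members were higher and without its replicate 3 there were 6, DESeq2 gave 7, and 5 had a log2 fold change above 0.5.

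RPN12, a lid subunit, had 347, 363 and 359 reads in dxo1Δ rai1Δ npy1Δ, against 188, 209 and 198 in dxo1Δ npy1Δ (log2 0.84 ± 0.12, adjusted p = 1.01e-05). PRE5, an alpha ring gene, had 442, 434 and 476, against 279, 251 and 290 (log2 0.73 ± 0.12, adjusted p = 4.79e-05). PRE8 had 155, 141 and 171, against 94.6, 84.0 and 101 (log2 0.75 ± 0.14, adjusted p = 0.000407). The libraries of the 2 strains did not overlap for any of the 3 genes, and each kept its call without any single library. In this pair 41.3% of all RNAs tested and 13 of the 32 members had no overlap. RPN1, a large scaffold subunit of the cap that binds ubiquitin shuttles, had 320, 254 and 270, against 405, 373 and 338 (log2 -0.40 ± 0.12, adjusted p = 0.016), and this call was lost by total counts and without dxo1Δ rai1Δ npy1Δ replicate 2 (adjusted p = 0.1), its replicate 3 (0.067) or dxo1Δ npy1Δ replicate 1 (0.063). The next lowest members, RPT2 (-0.15 ± 0.19, adjusted p = 0.581) and PUP3 (-0.14 ± 0.12, adjusted p = 0.396), were not called.

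The same deletion in the other background, dxo1Δ rai1Δ against dxo1Δ, called 3 members higher (8.35% of all RNAs) and none lower (7.1%), with 9 members below an unadjusted p of 0.05 and none lower by DESeq2. PRE5 had 422, 501 and 490 reads in dxo1Δ rai1Δ, against 349, 270 and 323 in dxo1Δ, and RPN12 had 274, 287 and 305, against 213, 174 and 212. PUP2, of the alpha ring, had 282, 276 and 288, against 203, 203 and 207. No library of one strain reached into the other for these genes, as for 31.3% of all RNAs tested and 14 of the 32 members. The log2 fold changes of the 3 genes were 0.59, 0.54 and 0.47 (edgeR, adjusted p = 0.00342, 0.00926 and 0.0189). All 3 were also higher in the triple deletion against dxo1Δ npy1Δ, which uses none of the same libraries. This count depended on single libraries: it was 8 without dxo1Δ rai1Δ replicate 1, 1 without its replicate 2, 1 without dxo1Δ replicate 2 and 5 without dxo1Δ replicate 3.

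RPN4 had 264, 257 and 235 reads in dxo1Δ rai1Δ npy1Δ, against 342, 375 and 313 in dxo1Δ npy1Δ (log2 -0.45 ± 0.12, adjusted p = 0.0063), opposite in sign to the members' median. Of the other pathway genes 5 of 25 were higher and 5 lower, beside 14.2% and 14.4% of all RNAs. UMP1, the chaperone that assembles the core particle, had 195, 179 and 183, against 97.7, 99.4 and 101 (log2 0.90 ± 0.13, adjusted p = 2.15e-05), and the shuttle gene RAD23 had 222, 277 and 238, against 399, 424 and 453 (log2 -0.79 ± 0.12, adjusted p = 2.81e-05).

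Reads on the coding sequence gave a second view of the same libraries. In npy1Δ against WT the direction was the same for PRE6 (0.73), RPN7 (0.64), PRE7 (-0.57), RPN8 (-0.99) and RPN5 (-0.85), in each case as log2 with TMM factors, but over coding sequences 17 members in place of 7 were lower (39.5% of the 7062 RNAs tested over coding sequences) and 5 were higher (40.7%). PRE8 was not called there (log2 0.13, adjusted p = 0.235). In dxo1Δ rai1Δ npy1Δ against dxo1Δ npy1Δ 6 were higher (20% of all RNAs) and 6 lower (17.8%) over coding sequences. There RPN12 (0.30), PRE5 (0.53) and PRE8 (0.27) remained higher and RPN1 (-0.63) remained lower, with RPN2, RPN10, RPT2, RPT4 and RPT5 joining it. In dxo1Δ rai1Δ against dxo1Δ 12 were higher (20.7%) and 2, RPN1 and RPN10, lower (16.6%).

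A few members were called in opposite directions by the 5′ region and the coding sequence. There were 3 or 4 in each comparison of the 6 other deletion strains with WT and none in npy1Δ. Such opposite calls were not counted over all RNAs. RPT4, an ATPase of the cap, had 169, 162 and 176 TMM-normalised 5′ reads in rai1Δ, against 79.3, 72.4 and 119 in WT (log2 0.89 ± 0.16, adjusted p = 3.33e-05). Over its coding sequence RPT4 had 126, 127 and 129 RPM in rai1Δ, scaled to all coding reads on mRNAs, against 201, 199 and 197 in WT (log2 -0.70, adjusted p = 1.28e-06). PRE3 had 58.7, 62.2 and 74.8 TMM-normalised 5′ reads in rai1Δ, against 30.6, 24.9 and 35.9 in WT, and 163, 150 and 149 RPM of coding reads in rai1Δ, against 191, 187 and 162 in WT. In 5′ reads rai1Δ and WT did not overlap for 78.4% of all RNAs tested and 30 of the 32 members. The groups were apart for both kinds of count of RPT4 and in opposite order. For PRE3 only 1 rai1Δ library exceeded a WT library over the coding sequence. PUP2 (0.46 and -0.35) and the ubiquitin receptor gene RPN10 (0.36 and -0.25) were the others in rai1Δ, as log2 of the 5′ region and of the coding sequence with TMM factors.

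**Figure D3:**
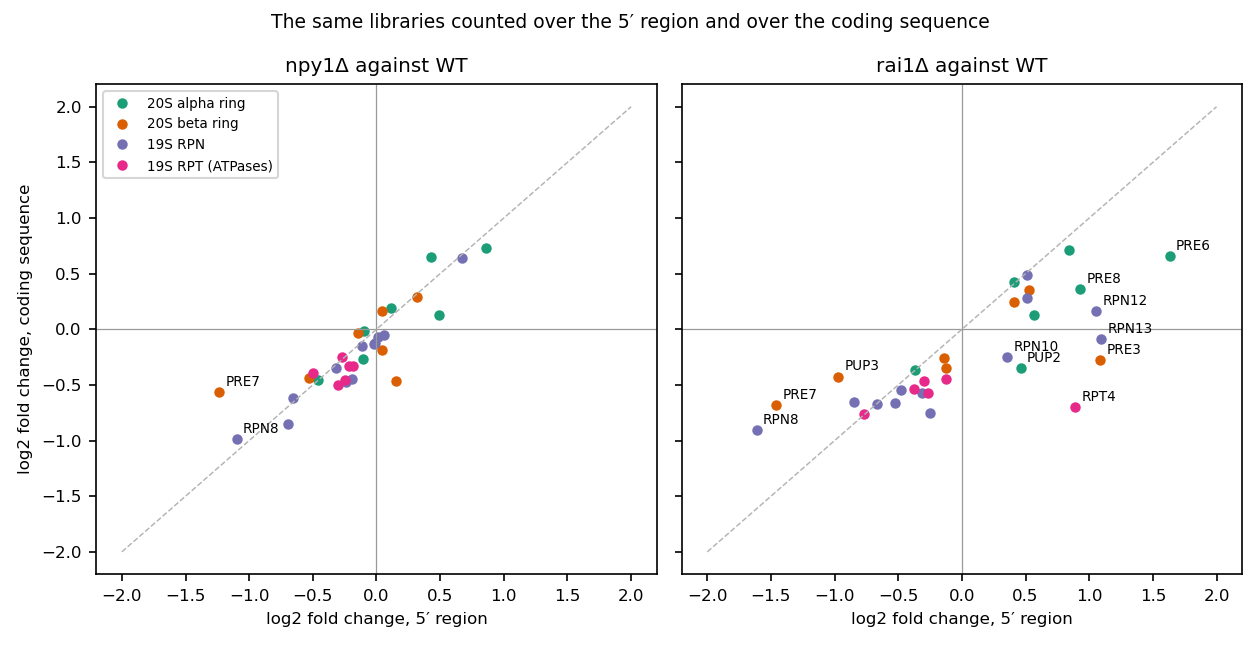
Log2 fold change of each member over the coding sequence (vertical axis) against that over the 5′ region (horizontal axis), with TMM factors, for single comparisons of the transcriptome. Most members lie near the diagonal, and RPT4 and PRE3 in rai1Δ against WT lie at positive values for the 5′ region and negative ones for the coding sequence, both by TMM factors.

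No member had another annotated gene on the same strand inside the 120 bases before its start codon, and the nearest, upstream of RPT2, ended 194 bases away in the R64 annotation. The 5′ reads therefore fell in windows that hold no other annotated gene of that strand.

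NAD captureSeq asked which of these transcripts carry an NAD cap. In unfragmented RNA the +ADPRC libraries held 205 to 5296 reads on the members, and the −ADPRC libraries 1 to 116, so that single −ADPRC values are near the counting limit. The members' share of the mRNA reads was 0.601 to 0.801% in the strain means with ADPRC and 0.0612 to 0.222% without it. A member was called enriched by edgeR's quasi-likelihood test at an adjusted p below 0.05 and a log2 fold change above 0.5.

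Most members were enriched in each strain. The counts were 31 of 32 in npy1Δ (44.7% of all RNAs tested), 32 in dxo1Δ (87.3%), 30 in rai1Δ (56%), 32 in dxo1Δ npy1Δ (57.2%), 32 in dxo1Δ rai1Δ (68%), 32 in rai1Δ npy1Δ (83.1%), 31 in dxo1Δ rai1Δ npy1Δ (53.1%) and 23 of the 29 tested in WT (36.1%). None was depleted in any strain, beside 7.38% of all RNAs in npy1Δ, 7.64% in dxo1Δ, 6.78% in rai1Δ, 8.3% in dxo1Δ npy1Δ, 7.89% in dxo1Δ rai1Δ, 7.83% in rai1Δ npy1Δ, 7.7% in dxo1Δ rai1Δ npy1Δ and 3.37% in WT. In 103 of 256 pairs of member and strain the controls held no read. Such a member, where tested, passed the limit on mean reads through captured reads alone and could not be called depleted. The same limit on mean reads was set for all RNAs. By strain, 21 members were enriched in all 8, 9 in 7 and PRE10 and RPN9 in 6. The number of all RNAs enriched in every strain was not counted. The members' median log2 enrichment was above that of all RNAs in each strain, for example 4.83 beside 2.67 in npy1Δ, 4.10 beside 4.02 in dxo1Δ npy1Δ and 5.24 beside 4.21 in WT, where controls without reads make single values depend on the fit. The 3 members not tested in WT, PRE9, RPN7 and RPN9, had 5, 7 and 0 captured reads there in all.

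The counts in npy1Δ, rai1Δ and WT rested on single libraries. Without npy1Δ +ADPRC replicate 3 there were 20 enriched members, without rai1Δ +ADPRC replicate 2 there were 13, and without WT +ADPRC replicate 1 there were 11. Under edgeR's filterByExpr, which drops genes with few reads, the count was 19 in rai1Δ, 19 in rai1Δ npy1Δ and 5 in WT. A block by replicate number lowered the counts in rai1Δ, dxo1Δ rai1Δ npy1Δ and WT, and removed every call in dxo1Δ npy1Δ. The main test does not pair the libraries, and the counts with the block are given at the end.

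RPN11, the gene of the deubiquitinase that removes ubiquitin from substrates, had the most captured reads of all members, 5071 over the 8 strains. In dxo1Δ it had 124, 171 and 87 reads with ADPRC, against 0, 0 and 0 without, at least 69.7-fold higher, when 3 reads over the 3 controls are taken as the limit. In rai1Δ npy1Δ it had 99, 71 and 54, against 0, 0 and 0, at least 53.3-fold higher by the same limit. Both strains had captured reads in every library and none in the controls.
RPN11 had 203, 88 and 240 captured reads in npy1Δ, against 7, 2 and 0 without ADPRC (log2 4.81 ± 0.74, adjusted p = 0.000168). In dxo1Δ rai1Δ npy1Δ it had 272, 492 and 514, against 1, 0 and 2, and in rai1Δ 495, 116 and 52, against 1, 0 and 0. In dxo1Δ npy1Δ there were 156, 633 and 103, against 1, 1 and 0, and in dxo1Δ rai1Δ 443, 237 and 346, against 2, 2 and 0. WT had the fewest, with 53, 20 and 2, against 1, 0 and 0 (log2 4.99, adjusted p = 0.0023). The lowest captured library exceeded the highest control library in all 8 strains. In single strains this held for 38.9% (WT) to 86.3% (dxo1Δ) of all RNAs tested.

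RPT1, an ATPase of the cap, behaved alike, with 3138 captured reads over the 8 strains. It had 107, 117 and 79 reads with ADPRC in dxo1Δ, against 0, 0 and 0, at least 55.3-fold higher, and 61, 40 and 28 in rai1Δ npy1Δ, against 0, 0 and 0, at least 30.7-fold higher. It had 155, 52 and 112 in npy1Δ, against 0, 0 and 10 (adjusted p = 0.00234), and 69, 8 and 10 in WT, against 2, 0 and 0 (adjusted p = 0.00265). The calls of RPT1 in npy1Δ and WT were lost when a +ADPRC library was left out, replicate 1 (adjusted p = 0.052) or replicate 3 (0.07) of npy1Δ, and replicate 1 of WT (0.053).

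RPT3 was different between strains. In dxo1Δ it had 22, 40 and 26 captured reads, against 1, 0 and 1 without ADPRC (log2 4.41 ± 0.64, adjusted p = 1.62e-11). In npy1Δ there were 650, 255 and 483, against 1, 8 and 30 (log2 4.19 ± 0.60, adjusted p = 0.0001), and in WT 741, 156 and 62, against 0, 7 and 7 (log2 4.98 ± 0.57, adjusted p = 1.87e-16). As part of the captured mRNA reads, RPT3 took between 138 ± 14 and 216 ± 82 RPM in the 6 strains that lack DXO1 or RAI1, 928 ± 61 RPM in npy1Δ and 2745 ± 796 RPM in WT (SD, n = 3). Its 5′ region had 186 to 223 RPM in the transcriptome over the 8 strains, and its coding sequence 161 RPM in npy1Δ, 174 to 187 RPM in the other deletion strains and 259 RPM in WT. The captures of npy1Δ and WT shared a run and those of the other strains came from other runs, so that the strain and the run cannot be told apart. In rai1Δ the call of RPT3 was lost without +ADPRC replicate 2 (adjusted p = 0.4).

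**Figure D4:**
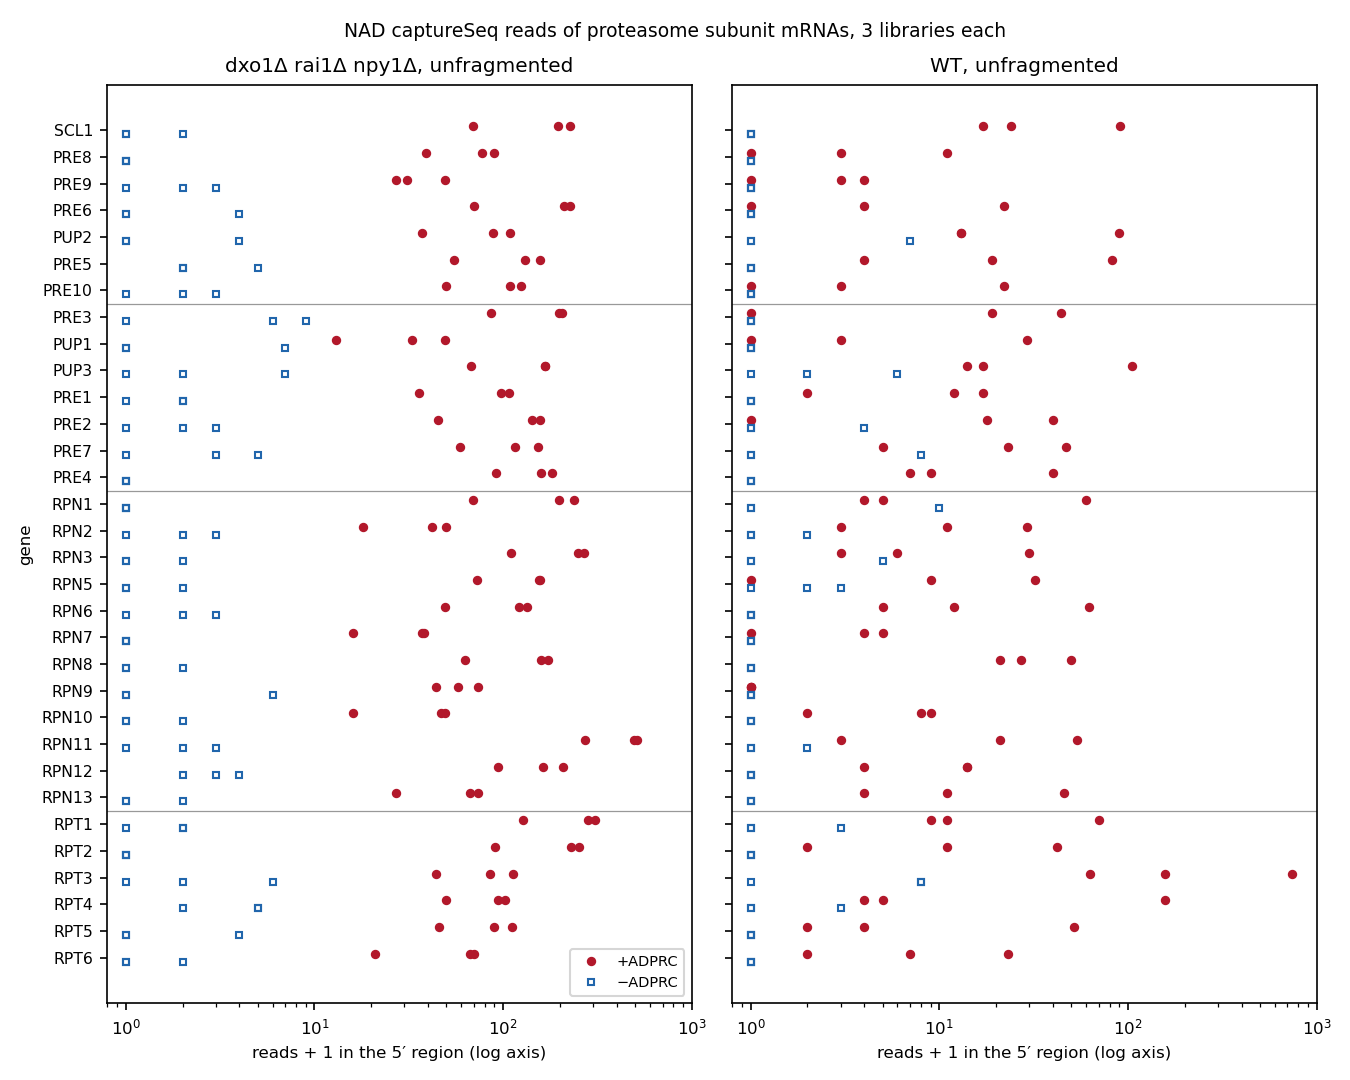
Reads plus 1 (log axis) in each +ADPRC and −ADPRC library of unfragmented RNA (points) for the 32 members in dxo1Δ rai1Δ npy1Δ and WT. Summed over the members, the +ADPRC libraries hold 1945 to 4867 reads in dxo1Δ rai1Δ npy1Δ and 205 to 2090 in WT. The −ADPRC libraries hold 13 to 63 and 7 to 32.

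Set against the transcript level, the members differed widely in how much was captured. The log2 ratio of the captured share to the transcript share was taken for each of 4836 to 5550 mRNAs with enough reads in a strain. RPN11 had the highest ratio of all members in the 6 strains with a DXO1 or RAI1 deletion, at 3.81 to 3.96, and lay at the 98.6 to 98.7 percentile of all mRNAs there. In npy1Δ its ratio was 2.32 and in WT 1.73. PRE3 was second over the strains, at 2.27 to 3.31, at the 95.6 percentile of all mRNAs or above in all 8 strains. RPT2, an ATPase that helps open the gate of the core, was at 0.91 to 3.27, and RPT1 at 0.83 to 2.58. PRE3, RPN11 and RPT2 had the lowest 5′ region levels in the transcriptome of the 32 members, at 33.9, 55.3 and 60.4 RPM over the 8 strains, and this level is the denominator of the ratio. Over coding sequences PRE3 had 180 RPM in WT and 103 to 156 RPM in the deletion strains. RPN11 had 157 RPM in WT and 92.0 to 116 RPM in the deletion strains, and RPT2 164 RPM and 87.0 to 111 RPM. The lowest member in WT on that count was RPN13, at 61.2 RPM. The part of the low 5′ region level in the high ratios of PRE3, RPN11 and RPT2 was not tested.

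At the other end, PRE9 was at -2.83 to -1.59, below the median mRNA in all 8 strains, and so was RPN7, at -2.26 to -0.77. PUP1, the trypsin-like protease subunit, and RPN2, the other large scaffold subunit of the cap, were above the median mRNA in 1 strain only. PRE9 and RPN7 were 2 of the 3 members with higher transcript reads in all deletion strains than in WT, and no test links these readouts. Between 24 and 29 of the 32 members had a ratio above the median of all mRNAs in any strain. By group, 4 of 7 alpha ring, 4 of 7 beta ring, 8 of 12 RPN and 5 of 6 RPT genes were above it in all 8 strains.

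RPT4 and PUP2 followed RPT3. The ratio of RPT4 was 0.40 to 0.71 in the 6 strains that lack DXO1 or RAI1, 2.58 in npy1Δ and 2.64 in WT. Behind this stood 226, 66 and 174 captured reads in npy1Δ (300.3 ± 62.6 RPM, SD, n = 3) and 156, 4 and 3 in WT (309 ± 393 RPM), so that 1 WT library held nearly all of them. That of PUP2 was -0.59 to -0.12 in the 6 strains, 1.30 in npy1Δ and 1.62 in WT. RPN13, a ubiquitin receptor, was at -0.20 to 0.23 in the 6 strains, 1.29 in npy1Δ and 1.97 in WT. RPN3 had the opposite order, with 0.28 to 1.22 in the 7 deletion strains and -1.28 in WT. WT and npy1Δ shared a capture run, and these differences were not tested.

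**Figure D5:**
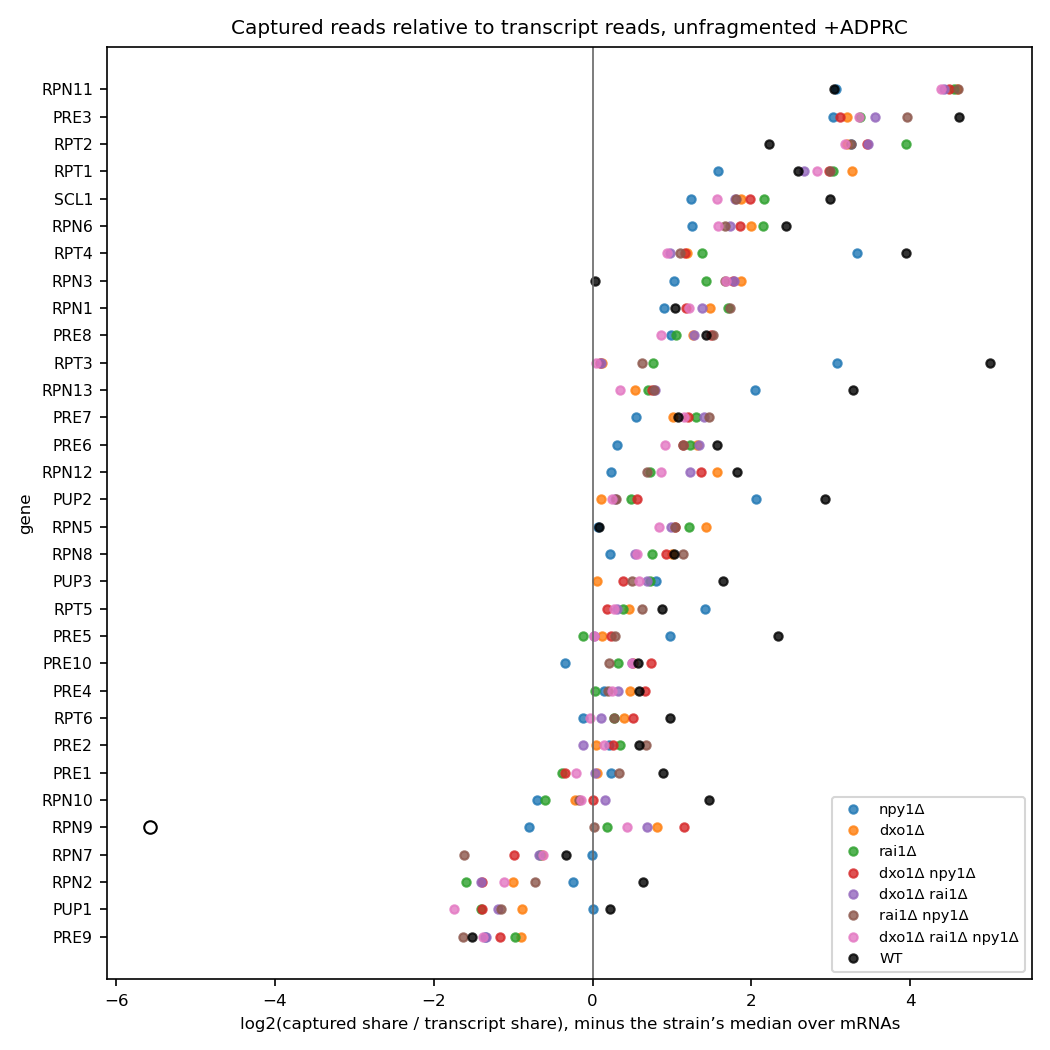
Log2 ratio of captured to transcript reads for each member (rows), less the median over all mRNAs of that strain, in unfragmented +ADPRC captures, where each point is a strain mean of 3 libraries. RPN11, PRE3, RPT2 and RPT1 lie far to the right in most strains, RPT3, RPT4, RPN13 and PUP2 do so in npy1Δ and WT, and the open circle marks RPN9 in WT, which had 0 captured reads and whose place is set by an added 0.5 reads.

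Few captured reads fell on the 5′ region of the regulator's own mRNA, 89 for RPN4 over the 8 strains. RPN4 was enriched in npy1Δ only, with 11, 5 and 4 reads, against 0, 0 and 0 without ADPRC. Among the other pathway genes the assembly chaperone UMP1 had 2940 captured reads and the unfoldase gene CDC48 had 3101. Of the 25 genes, 16 of the 25 tested were enriched in npy1Δ, 21 of 22 in dxo1Δ, 18 of 24 in rai1Δ, 20 of 24 in dxo1Δ npy1Δ, 19 of 25 in dxo1Δ rai1Δ, 17 of 18 in rai1Δ npy1Δ, 21 of 25 in dxo1Δ rai1Δ npy1Δ and 7 of 14 in WT. The shares of all RNAs in the same order were 44.7%, 87.3%, 56%, 57.2%, 68%, 83.1%, 53.1% and 36.1%.

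Whether loss of NPY1 alters the enrichment was tested as an interaction of strain and ADPRC in pairs of 1 run. In npy1Δ against WT no member was called, compared with 0.281% of all RNAs more enriched and 7.1% less enriched, and 4 members were below an unadjusted p of 0.05. None was called in rai1Δ npy1Δ against rai1Δ (0% in either direction, 2 members unadjusted) or in dxo1Δ rai1Δ npy1Δ against dxo1Δ rai1Δ (0% more and 0.0898% less enriched, 2 members unadjusted), and DESeq2 called none in these 3 pairs. In dxo1Δ npy1Δ against dxo1Δ RPT4 and RPN9 were less enriched, compared with 2.71% of all RNAs (0% more enriched).

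RPT4 had 27, 129 and 31 captured reads in dxo1Δ npy1Δ, against 9, 0 and 3 in its controls, and 23, 41 and 23 in dxo1Δ, against 1, 0 and 0. RPN9, a lid subunit, had 28, 104 and 18 in dxo1Δ npy1Δ, against 3, 0 and 6, and 18, 20 and 11 in dxo1Δ, against 0, 0 and 0. In the captured libraries RPT4 had 143 ± 37 RPM in dxo1Δ npy1Δ and 143 ± 31 RPM in dxo1Δ, and RPN9 had 110 ± 8 RPM in dxo1Δ npy1Δ and 81 ± 17 RPM in dxo1Δ (SD, n = 3). The summed control reads were 12 for RPT4 and 9 for RPN9 in dxo1Δ npy1Δ, against 1 and 0 in dxo1Δ. The fitted log2 differences were -4.07 ± 1.17 for RPT4 (adjusted p = 0.0311) and -5.70 ± 1.77 for RPN9 (adjusted p = 0.0474), the second being set by the fit because its dxo1Δ controls had no read. DESeq2 and RLE factors called neither gene, and without dxo1Δ npy1Δ −ADPRC replicate 2 the count of members called was 12.

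Fragmented captures gave few calls. In small fragments of npy1Δ 3 of 32 members were enriched (3.65% of all RNAs tested): RPN11 with 41, 65 and 40 reads, against 12, 19 and 14 (log2 1.18 ± 0.27, adjusted p = 0.0187), RPT1 with 28, 42 and 32, against 3, 13 and 9 (log2 1.52 ± 0.37, adjusted p = 0.0278), and RPT6, an ATPase, with 16, 15 and 8, against 2, 4 and 1 (log2 1.91 ± 0.52, adjusted p = 0.0457). RPN11 and RPT1 are also among the most captured members in unfragmented RNA. In WT small fragments no member was enriched (1.19%), with 11 below an unadjusted p of 0.05 and none by DESeq2.
In large fragments of npy1Δ RPT1 was the only call (2.7%), with 37, 29 and 10 reads, against 5, 2 and 24 (log2 1.65 ± 0.40, adjusted p = 0.00382), where the groups overlapped. In large fragments of WT PRE6 was the only one of 31 tested (2.25%), with 12, 1 and 14 reads, against 2, 0 and 0 (log2 3.43 ± 0.96, adjusted p = 0.0395). DESeq2 called none of the 3 members in small fragments of npy1Δ nor PRE6 in WT. No member was depleted in fragments of either size (small, 0.209% of all RNAs in npy1Δ and 0.171% in WT, and large, 0.594% and 1.06%). The interaction of NPY1 loss and ADPRC called no member in small (0% in either direction, 4 unadjusted) or large fragments (0%, 6 unadjusted), and none by DESeq2.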

How the data were processed

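Transcriptome and NAD captureSeq libraries of 8 BY4742 strains (96 libraries) were analysed. The deposited counts are whole reads per feature, which the authors made with Bowtie and HTSeq (processing notes of the submitters, with SAMtools 0.1.13 and DESeq2 1.4.5) on a BY4742 assembly, and transcriptome counts were deposited for 5′ regions and for coding sequences. Deposited tables of the authors' own comparisons, which hold log2 fold changes, p-values and base means, were not used. Counts were fitted with edgeR 4.0.16 in R 4.3.3 (TMM factors, RNAs with a mean above 1 normalised read, glmQLFit and glmQLFTest, Benjamini-Hochberg adjustment over all RNAs tested). A standard error is the log2 fold change divided by the square root of F. Comparisons across the transcriptome were called at an adjusted p below 0.05, captures also at a log2 fold change above 0.5. Captures hold 470978 to 29300164 reads per unfragmented −ADPRC library and 616837 to 19424126 per +ADPRC library. The floors given where controls held no read cover counting error only. Standard errors and SDs also hold the spread between libraries. No 2 libraries held identical counts. Steps were tested on simulated data.

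The members and lists were chosen with earlier results of these data known. All 32 members could be named. Full values were given for the 3 highest and 3 lowest fold changes in npy1Δ against WT and in the pair within a run with the most calls, for the members with the most captured reads, and for those called in the interaction. RPT4 and PRE3 in rai1Δ, PUP2, PRE5 and RPN12 in dxo1Δ rai1Δ, and the ratios of captures to transcripts were chosen after their values were seen. Promoter windows came from the RefSeq genome and annotation R64, a build other than that of the files, and no genome coordinates are given. Alternatives were DESeq2 1.42.0, RLE factors, total counts, filterByExpr, no filter, coding sequences, 1 fit of all libraries, a replicate block, a log2 limit of 0.5, unadjusted p and leaving out each library.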

Additional observations from a re-analysis of the deposited data

Results flagged for a closer look

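RPT4 and RPN9 were called less enriched upon loss of NPY1 in dxo1Δ npy1Δ than in dxo1Δ, with a log2 difference of -4.07 for RPT4 and -5.70 for RPN9 by edgeR's interaction test, which singled them out. Their captured share of the mRNA reads was not lower in dxo1Δ npy1Δ, and the controls of that strain held more reads of both genes. RPT4 fell short of the threshold when any of 10 of the 12 libraries was left out, and RPN9 for 11 of 12.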

How the results depend on the processing

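Counts of members beyond 1.5 times the main count are given here. By DESeq2, members higher were 3 in npy1Δ against WT and 7 in dxo1Δ rai1Δ npy1Δ against dxo1Δ npy1Δ, 1 was lower in dxo1Δ rai1Δ against rai1Δ, and 0 were enriched in small fragments of npy1Δ and in large fragments of WT. By total counts, members higher against WT were 30 in npy1Δ, dxo1Δ, dxo1Δ npy1Δ, dxo1Δ rai1Δ, rai1Δ npy1Δ and dxo1Δ rai1Δ npy1Δ and 31 in rai1Δ, with 0 lower in all 7. On this scaling PRE7 (0.24), RPN8 (0.39) and RPN5 (0.77) turned in npy1Δ against WT, 0 members were lower in dxo1Δ rai1Δ npy1Δ against dxo1Δ npy1Δ, 1 was lower in dxo1Δ rai1Δ against rai1Δ, and 9 were enriched in small fragments of npy1Δ, 9 in those of WT, 9 in large fragments of npy1Δ and 2 in those of WT. RLE factors gave 0 enriched members in small and 2 in large fragments of npy1Δ. The fit of all 24 transcriptomes gave 6 members higher in dxo1Δ rai1Δ against dxo1Δ. With coding sequences 17 members were lower in npy1Δ, 8 higher and 21 lower in rai1Δ, 5 higher in dxo1Δ npy1Δ, 8 higher in rai1Δ npy1Δ and 8 in the triple deletion, all against WT, 12 higher and 2 lower in dxo1Δ rai1Δ against dxo1Δ, and 6 higher and 6 lower in the triple deletion against dxo1Δ npy1Δ. With filterByExpr the enriched members were 19 in rai1Δ, 19 in rai1Δ npy1Δ and 5 in WT of unfragmented RNA, and 2 in npy1Δ and 0 in WT of large fragments. With a log2 limit of 0.5 against WT, members higher were 2 in npy1Δ, 3 in dxo1Δ, 4 in dxo1Δ npy1Δ, 7 in dxo1Δ rai1Δ and 8 in the triple deletion, and members lower 7 in rai1Δ, 10 in dxo1Δ rai1Δ, 9 in rai1Δ npy1Δ and 8 in the triple deletion, while the triple deletion against dxo1Δ npy1Δ gave 5 higher and 0 lower. Without a filter 5 members were enriched in small fragments of npy1Δ. At an unadjusted p these were 8 in npy1Δ and 11 in WT of small fragments, and 8 in npy1Δ and 4 in WT of large fragments. The 2 interaction calls in dxo1Δ npy1Δ against dxo1Δ became 0 by DESeq2, RLE factors, total counts and filterByExpr. The cause was not tested for any of these.

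Same-numbered libraries did not deviate together in all pairs of any comparison, and every library fitted best with its own number only in dxo1Δ npy1Δ against dxo1Δ and dxo1Δ rai1Δ npy1Δ against dxo1Δ npy1Δ and in the captures of dxo1Δ npy1Δ and dxo1Δ rai1Δ npy1Δ. With a replicate block 11 members were enriched in rai1Δ, 0 in dxo1Δ npy1Δ, 11 in dxo1Δ rai1Δ npy1Δ and 7 in WT of unfragmented RNA, 6 in npy1Δ and 1 in WT of small fragments, and 0 were called in the interaction of dxo1Δ npy1Δ against dxo1Δ.

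Leaving out single libraries gave 3 to 5 members higher in npy1Δ against WT, 4 to 8 in dxo1Δ against WT, 0 to 1 in dxo1Δ rai1Δ npy1Δ against dxo1Δ rai1Δ, 1 to 8 in dxo1Δ rai1Δ against dxo1Δ, and 6 to 11 higher and 0 to 1 lower in the triple deletion against dxo1Δ npy1Δ, with 0 to 1 lower in dxo1Δ rai1Δ against rai1Δ. Enriched members were 20 to 31 in npy1Δ, 13 to 32 in rai1Δ and 11 to 26 in WT of unfragmented RNA, 0 to 5 in npy1Δ and 0 to 4 in WT of small fragments, and 0 to 4 in npy1Δ and 0 to 1 in WT of large fragments. Interaction calls were 0 to 1 in npy1Δ against WT, 0 to 12 in dxo1Δ npy1Δ against dxo1Δ and 0 to 1 in dxo1Δ rai1Δ npy1Δ against dxo1Δ rai1Δ. RPT2 in the triple deletion against dxo1Δ npy1Δ, which was not called, spanned -0.33 to 0.14 and turned to 0.14 without dxo1Δ npy1Δ replicate 1. In the −ADPRC captures 103 of 256 pairs of member and strain held no read. In unfragmented RNA mRNAs took 1.91 to 12.6% of the +ADPRC reads and 0.102 to 1.15% of the −ADPRC reads.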
